A study of Homo sapiens with 6 samples.

Results

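FLT3, PROM1, CSPG4, LGALS1 and IL7R are 5 of the 62703 gene IDs counted in SEM cells, taken by symbol as receptor, surface and secreted products tied to KMT2A-rearranged leukaemia. SEM is an established line of human B-cell precursor acute lymphoblastic leukaemia with the KMT2A::AFF1 fusion. Total RNA was sequenced from transfected cells. In the KD group (knock-down, 3 libraries), a pair of Dicer-substrate siRNAs was aimed at the junction that closes AK_8_2, a circular RNA of that fusion. The NC group (negative control, 3 libraries) received a purchased duplex without a target. Every library came from the same fusion-positive line and every culture was transfected, so an untransfected culture and a fusion-negative line are not part of the comparison. All 5 genes passed the filter on low counts and were tested.

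In KMT2A-rearranged leukaemia the fusion protein binds chromatin at a limited set of genes and recruits factors that promote transcript elongation, and several surface proteins of this leukaemia are known from that setting. FLT3 is a class III receptor tyrosine kinase of early haematopoietic cells, and IL7R is the alpha chain shared by the receptors for interleukin 7 and TSLP. PROM1 encodes CD133, a pentaspan protein of membrane protrusions. CSPG4 encodes NG2, a chondroitin sulphate proteoglycan that is used as a diagnostic marker of KMT2A-rearranged leukaemia. LGALS1 encodes galectin 1, a secreted lectin that binds glycans on surface receptors.

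The listed start windows of the receptor genes differed sharply in CG content, and those of FLT3 and IL7R are shown because they mark the extremes. KMT2A carries a domain that binds unmethylated CG dinucleotides, which are in capitals. Both windows are from RefSeq (GRCh38.p14), 5′ to 3′ on the gene's strand, and run from 250 bases before to 50 bases after the start: chr13:28100527-28100826 on the minus strand for FLT3 and chr5:35856641-35856940 on the plus strand for IL7R.
FLT3: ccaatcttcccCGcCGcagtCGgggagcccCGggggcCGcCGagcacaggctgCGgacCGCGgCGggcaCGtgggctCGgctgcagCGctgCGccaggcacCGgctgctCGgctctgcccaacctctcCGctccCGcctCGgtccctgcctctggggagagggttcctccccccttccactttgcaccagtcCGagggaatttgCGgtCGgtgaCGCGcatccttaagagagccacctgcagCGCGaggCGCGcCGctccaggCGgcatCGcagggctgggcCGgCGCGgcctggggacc
IL7R: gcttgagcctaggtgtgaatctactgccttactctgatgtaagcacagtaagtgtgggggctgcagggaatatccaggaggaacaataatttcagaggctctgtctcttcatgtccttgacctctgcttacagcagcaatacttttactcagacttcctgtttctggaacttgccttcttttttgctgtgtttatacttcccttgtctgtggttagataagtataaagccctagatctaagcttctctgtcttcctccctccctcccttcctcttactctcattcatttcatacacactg

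The FLT3 window held 34 CG, more than 84.4% of the 35116 windows of that length, and the IL7R window held 0, as did 3.96% of windows. The IL7R window lies inside the annotated gene, which begins at 35852695, and no window at that end was counted. The CSPG4 window (chr15:75712799-75713098, minus strand) held 19, and the median window held 14. PROM1 has 4 listed starts, with 18, 32, 24 and 6 CG. An entry was found for 4 of the 5 genes, and LGALS1 was not matched. The letters TATAAA, searched on both strands, occurred in the IL7R window and in none of the others, and in 11.5% of all windows. GGGCGG, also searched on both strands, occurred in the CSPG4 window and in those of the PROM1 starts with 32 and 24 CG, and in 44.95% of all windows. These are counts of letters, and no binding was measured here.

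The counts assigned to genes ranged from 14750579 to 26694160 per library. Replicate 1 of both groups stood apart, where 48.6% of NC and 50% of KD records lay outside annotated features (elsewhere 11.3% to 17.3%), and where 52077 to 53121 genes had a count (elsewhere 30641 to 32311). The labelled cell type was borne out by its markers: PAX5 had 1091 ± 209 CPM (SD, n = 3) in KD against 1095 ± 172 in NC, where CPM are normalised counts scaled to a common library size. Of the 9 B-cell precursor markers, DNTT and RAG1 were near the floor, at 0 to 28 and 9 to 63 counts, and the list summed to 1444 to 1956 CPM in KD, against 1497 to 1969 in NC. PAX5 made up most of these sums, while CD79B had 4.263 to 6.455 CPM over the libraries and VPREB1 9.947 to 14.47. The 5 erythroid markers summed to 0.0525 to 2.59 CPM in KD, against 0 to 1.99 in NC, and the 5 epithelial ones to 0.393 to 14.4 and 0.350 to 13.8. Fibroblast markers (5) summed to 4.79 to 21.6 and 3.39 to 20.02 CPM. For these 3 lists the highest sums were in replicate 1. The 8 myeloid markers summed to 50.02 to 52.5 and 47.9 to 55.9 CPM, and the 7 T-cell markers to 103 to 112 and 102 to 113. Of the T-cell sums, TRAC and LCK made up most, while CD3E had 1 to 31 counts.

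All 5 genes were expressed in every library, at levels spanning more than an order of magnitude per length. Per kilobase of annotated exon FLT3 was highest, at 283 ± 20.8 CPM per kb (SD over 6 libraries), rank 108 of 12235 tested protein-coding genes. LGALS1 followed at 158 ± 16.8 (rank 205) and PROM1 at 80.3 ± 9.44 (rank 412). IL7R, at 16.2 ± 2.02 (rank 2624), and CSPG4, at 15.2 ± 2.81 (rank 2799), were lowest. FLT3 (261 to 311 CPM per kb), LGALS1 (136 to 181) and PROM1 (67.9 to 88.2) did not overlap one another in any library, whereas the ranges of IL7R (14.1 to 18.9) and CSPG4 (11.9 to 18.9) did. This order depends on the length used. Per kilobase of the longest principal transcript, LGALS1 (311 ± 33.0) and FLT3 (307 ± 22.5) had overlapping ranges, PROM1 stood at 149 ± 17.5, and IL7R (21.2 ± 2.65) remained next to CSPG4 (15.2 ± 2.81).

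**Figure D1:**
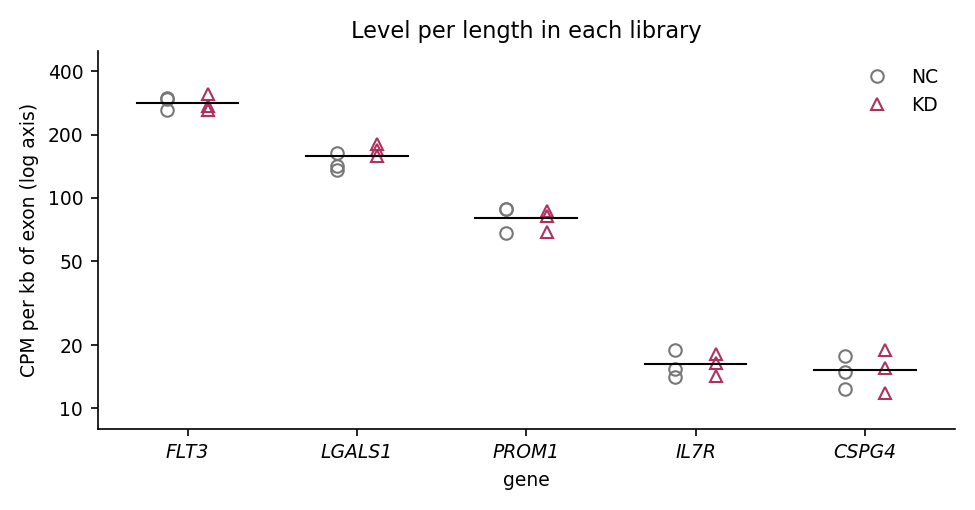
Level of each gene as CPM per kilobase of annotated exon (log axis); each symbol is a library (circles NC, triangles KD, 3 each) and the black line is the mean of 6. FLT3, LGALS1 and PROM1 occupy separate ranges, and IL7R and CSPG4 share one between 11.9 and 18.9.

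None of the 5 genes passed the test between KD and NC. LGALS1 was the 1 gene of the 5 whose KD library was higher than the NC library of the same number in all 3 pairs, and FLT3, PROM1, CSPG4 and IL7R each had pairs in both directions. Over all 16929 genes tested, the edgeR quasi-likelihood test called 0 (0%) after Benjamini-Hochberg adjustment, while 52 had an unadjusted p under 0.05, and neither DESeq2 nor limma-voom called any (0 each). In the paired fit, which adds the number of the replicate as a block, 29 genes, or 0.171%, were called, and none of the 5 was among them. Of all tested genes 25.7% moved in the same direction in all 3 pairs, 13.1% upward, so 1 of 5 is near the background. The 95% intervals of all 5 lay inside a 1.5-fold change in either direction, as did those of 50.7% of all genes without the block and 66.6% with it.

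**Figure D2:**
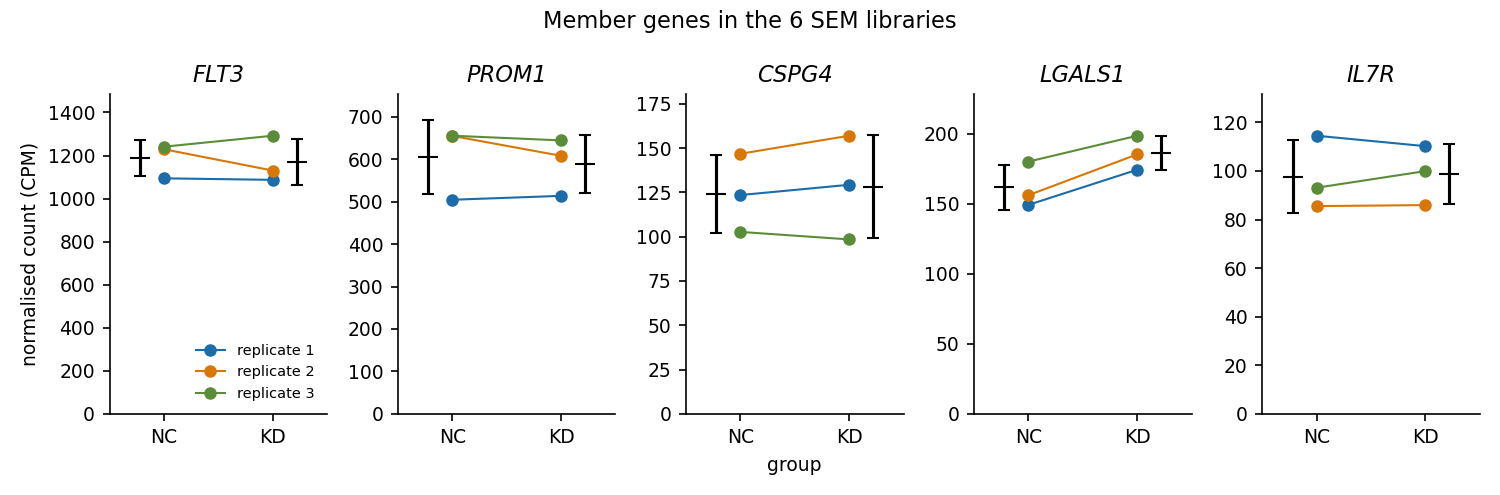
Normalised counts (CPM, linear axis from 0) of the 5 genes in each library; lines join KD and NC libraries of the same replicate number, and black marks give the mean and SD of 3. Lines are near level or cross direction except in LGALS1, where all 3 rise toward KD, by 0.14 to 0.25 on the log2 scale.

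FLT3 (ENSG00000122025.15, chromosome 13, 28003274 to 28100592, minus strand, GRCh38) measured 1087, 1130 and 1292 CPM in the KD libraries numbered 1 to 3, against 1094, 1229 and 1241 in the NC libraries. The groups overlapped, and the highest and the lowest library were both KD. The log2 fold change of KD over NC was -0.02 (SE 0.13, 95% interval -0.32 to 0.27, edgeR quasi-likelihood adjusted p 1.00), and -0.02 with the block (interval -0.12 to 0.07). Its annotated exons cover 4.16 kb in a span of 97.3 kb. KATNBL1P1, a pseudogene inside the gene on the other strand, had at most 0.222% of the FLT3 counts.

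No other gene of FLT3 signalling passed the test either. The list, chosen with earlier results of these data known, holds the ligand, adaptors, kinases and feedback regulators. Of 29 tested genes 0 were called in either direction, with or without the block. Over all tested genes the share called was 0% without the block and 0.171% with it, so 0 of 29 is near the background. The 28 other than FLT3 had a paired median of -0.00 (14 higher, 14 lower) against -0.01 over all genes. The ligand FLT3LG was hardly detected, with 15, 3 and 3 counts in KD and 34, 2 and 3 in NC, and did not pass the filter. Adaptors and phosphatases of the list differed in level. GRB2 had 207.5 ± 38.9 CPM in KD, against 204 ± 35.2 in NC, and PTPN11 317 ± 30.5 and 317 ± 35.1 (SD, n = 3). The adaptor SHC1 had 42.79 to 59.43 CPM over the libraries, and the phosphatases PTPRJ and DUSP6 had 46.01 to 61.47 and 10.22 to 26.4. The smallest unadjusted p in the paired fit belonged to the kinase MAP2K1, at -0.11 (interval -0.23 to 0.01). Among other class III receptors KIT had 1 to 66 counts and was not tested. CSF1R stood at -0.05 (-0.26 to 0.16), and CSF1, the ligand of CSF1R, stood at 0.86 with an interval of -0.00 to 1.71 and counts of 83, 21 and 3 in KD and 46, 11 and 0 in NC.

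IL7R (ENSG00000168685.15, chromosome 5, 35852695 to 35879603, plus strand) measured 110, 85.9 and 99.9 CPM in the KD libraries numbered 1 to 3, against 114.5, 85.5 and 93.1 in the NC libraries. Both groups followed the same order by replicate number and overlapped over nearly the whole range. The log2 fold change was 0.02 (SE 0.15, 95% interval -0.33 to 0.36, edgeR quasi-likelihood adjusted p 1.00), and 0.02 with the block (-0.09 to 0.13).

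Of the 20 tested genes of IL-7 and TSLP receptor signalling 0 were called in either fit. The share over all tested genes was 0% without the block and 0.171% with it. The 19 other than IL7R had a paired median of -0.02 (7 higher, 12 lower). Both cytokines were near the floor: IL7 had 2 to 37 counts and TSLP 3 to 34, each highest in replicate 1. CRLF2, the partner chain for TSLP, was listed at 0 in all libraries. It lies in the region shared by chromosomes X and Y, where a read placed on both copies is counted for neither, so this 0 says nothing about its expression. The common gamma chain IL2RG, which pairs with IL7R in the interleukin 7 receptor, had 23.1, 23.0 and 24.1 CPM in KD, against 17.1, 21.0 and 21.7 in NC. All 3 KD libraries lay above all 3 NC libraries, and the paired log2 difference was 0.23 (interval 0.04 to 0.42, edgeR quasi-likelihood adjusted p 0.888). CISH, a feedback inhibitor induced by STAT5, also had KD above NC in every library (11.7, 11.8 and 12.6 against 10.3, 11.3 and 11.2 CPM, paired log2 difference 0.14, interval -0.10 to 0.37). IL2RG and CISH were the 2 of 19 genes whose groups did not overlap, against 3.43% of all tested genes (1.67% with KD above and 1.77% with KD below). CISH was named after its values were seen, while 12 of the 19 genes had lower paired estimates in KD. JAK3, the kinase bound to the gamma chain, was lower in KD in all 3 pairs at -0.14 (interval -0.25 to -0.03, edgeR quasi-likelihood adjusted p 0.864). Of all tested genes 12.6% were lower in all 3 pairs. JAK1 stood at -0.03, STAT5A at -0.02 and STAT5B at -0.05.

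PROM1 (ENSG00000007062.12, chromosome 4, 15963076 to 16084378, minus strand) measured 514, 608 and 644 CPM in the KD libraries numbered 1 to 3, against 504, 655 and 655 in the NC libraries. Replicate 1 was the lowest in both groups and the groups overlapped. The log2 fold change was -0.04 (SE 0.15, 95% interval -0.40 to 0.32, edgeR quasi-likelihood adjusted p 1.00), and -0.04 with the block (-0.13 to 0.06). Its relative PROM2 had 2 to 83 counts, highest in replicate 1, and was not tested. The 3 other tested genes of the prominin list were uncalled (over all tested genes 0% were called without the block and 0.171% with it). Among them were CTNNB1, the beta-catenin that CD133 is reported to stabilise, at -0.06 (-0.15 to 0.04), and the deacetylase HDAC6, at 0.03 (-0.13 to 0.19). The neighbour TAPT1 stood at -0.05 and FGFBP2, which overlaps 166 bases of PROM1 exons on the same strand, had at most 0.570% of the PROM1 counts.

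CSPG4 (ENSG00000173546.7, chromosome 15, 75674322 to 75712848, minus strand) measured 129, 157 and 98.5 CPM in the KD libraries numbered 1 to 3, against 123.5, 147 and 103 in the NC libraries. Its order by replicate number was the same in both groups, and it was the most variable of the 5, with a coefficient of variation of 22.8% in KD and 17.8% in NC. The log2 fold change was 0.05 (SE 0.20, 95% interval -0.43 to 0.52, edgeR quasi-likelihood adjusted p 1.00), and 0.04 with the block (-0.07 to 0.14). CSPG4 has 9 annotated pseudogene copies, whose counts together were 1.65% to 4.83% of those of CSPG4, so reads shared with them are uncertain. Reads placed at several sites made up 4.70% and 4.90% of records in replicate 1 (KD and NC), 12.7% and 13.2% in replicate 2, and 31.5% and 17.3% in replicate 3, where CSPG4 was lowest. Their part in its level was not tested.

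Neither partners of NG2 nor the enzymes that build its chondroitin sulphate chains were called. Over all tested genes 0% were called without the block and 0.171% with it. Of 9 tested partners other than CSPG4, 4 were higher and 5 lower (paired median -0.01). The integrin chains ITGA4, at 245 ± 15.6 CPM in KD, against 244 ± 17.6 in NC, and ITGB1, at 178.5 ± 8.55 and 180 ± 12.5 (SD, n = 3), differed by 0.01 and -0.01. The scaffold SDCBP, which binds the NG2 tail, stood at -0.06 (-0.20 to 0.08) and the metalloproteinase MMP16 at 0.08 (-0.14 to 0.30). Of 20 tested synthesis genes 8 were higher and 12 lower (paired median -0.01). The paired interval of 18 stayed within 1.5-fold, as did that of 66.6% of all tested genes, among which many have low counts. The smallest unadjusted p values were those of PAPSS1, which makes the sulphate donor, at -0.09 (-0.21 to 0.04), and the sulphotransferase CHST7, at -0.48 (-1.41 to 0.45) on 5 to 39 counts.

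LGALS1 (ENSG00000100097.12, chromosome 22, 37675608 to 37679806, plus strand) measured 174, 185 and 199 CPM in the KD libraries numbered 1 to 3, against 149, 156 and 180 in the NC libraries. KD was higher in each pair, by 0.22, 0.25 and 0.14 on the log2 scale, while the groups overlapped because NC replicate 3 exceeded KD replicate 1. The log2 fold change was 0.20 (SE 0.11, 95% interval -0.07 to 0.47, edgeR quasi-likelihood adjusted p 1.00). With the block it was 0.20 (SE 0.05, interval 0.10 to 0.30, edgeR quasi-likelihood unadjusted p 4.85e-04, adjusted p 0.185), rank 43 of 16929 genes by p, and 9.24% of all genes had a larger estimate. LGALS1 did not pass over all genes in either fit, and in bulk RNA a difference in the number of cells with a transcript and a difference in its amount per cell cannot be told apart.

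LGALS1 is also by far the shortest of the 5, with 1.10 kb of annotated exon against 4.16 to 8.29 kb, and length moved with the difference. The 472 tested protein-coding genes under 1.5 kb had a paired median of 0.04, the 3721 from 1.5 to 4 kb one of 0.02 and the 8042 longer ones -0.01. All 3 pairs were higher in KD for 25.8% of the short genes and 10.8% of the long ones, and 14.6% of the short genes had a larger paired estimate than LGALS1. The part of length in the LGALS1 difference was not tested.

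**Figure D3:**
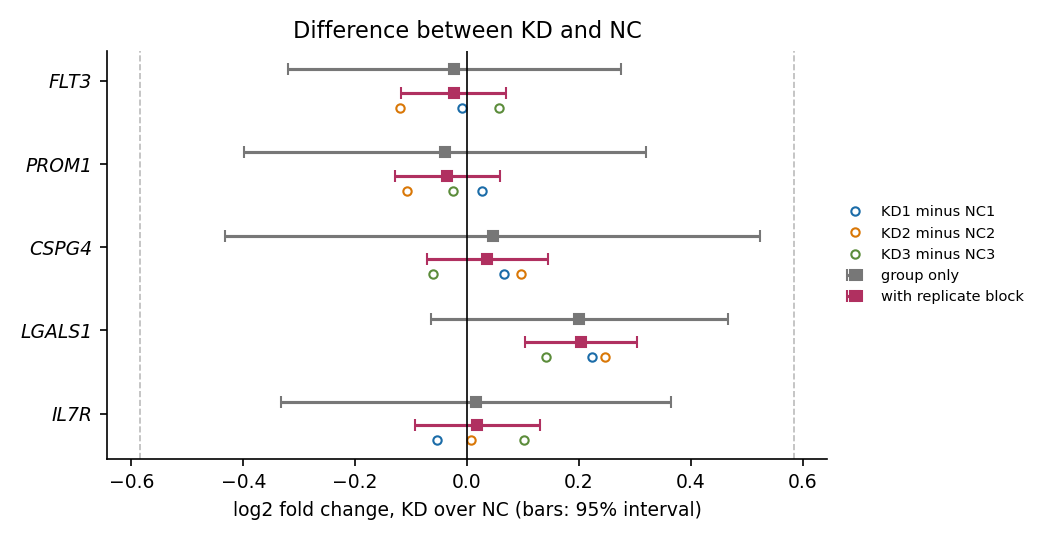
Log2 fold change of KD over NC per gene: squares with bars are estimates and 95% intervals from the fit with group only (grey) and with the replicate block (red), open circles are the 3 within-pair differences, and dashed lines mark a 1.5-fold change. All intervals lie within the dashed lines, and for LGALS1 the blocked interval of 0.10 to 0.30 lies above 0.

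Among the listed galectin genes LGALS1 had the highest level per kilobase. LGALS3 had 0 to 19 counts, and 9 of the 13 galectin list genes did not pass the filter. The 3 other tested genes were higher in KD in all 3 pairs, as were 13.1% of all tested genes, and were uncalled. LGALS9 stood at 0.12 (-0.04 to 0.28) and LGALS8 at 0.18 (-0.33 to 0.69) on 19 to 84 counts. LGALS3BP, a secreted galectin-binding glycoprotein and not itself a galectin, stood at 0.06 (-0.05 to 0.16). All 3 intervals include 0. Of the glycoproteins that galectin 1 binds, 8 of 12 were tested and 0 were called, against 0.171% of all tested genes with the block. Their paired median was -0.02 (3 higher, 5 lower). SPN, the sialomucin CD43, had 582 ± 50.8 CPM (SD, n = 3) in KD against 564 ± 67.7 in NC, and PTPRC, the phosphatase CD45, 71.9 ± 17.4 and 73.8 ± 15.3. CD7 was at 0 to 20 counts. IGLL1, the surrogate light chain part that binds galectin 1 at the pre-B-cell receptor, had 37.0, 27.1 and 36.2 CPM in KD, against 30.6, 22.8 and 29.8 in NC. It was higher in KD in all 3 pairs, by 0.28, 0.25 and 0.28 (paired log2 fold change 0.27, interval 0.12 to 0.42, edgeR quasi-likelihood adjusted p 0.344), whereas its partner VPREB1 stood at -0.10 (-0.36 to 0.16). Like LGALS1, IGLL1 has under 1.5 kb of annotated exon, and 25.8% of such tested protein-coding genes were higher in all 3 pairs. The part of length in the IGLL1 difference was not tested.

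Other surface markers used to type this leukaemia were not called either. Of 11 tested, 0 were called, against 0% of all tested genes without the block and 0.171% with it. The paired median of the 11 was 0.01 (6 higher, 5 lower). LAMP5, a lysosomal membrane family protein found at the surface of these cells, had 87.1 ± 29.7 CPM (SD, n = 3) in KD against 81.3 ± 24.2 in NC and stood at 0.09 (-0.03 to 0.21). MME, the CD10 antigen that KMT2A-rearranged blasts typically lack, had 0 to 53 counts, of which the highest were in replicate 1. CD99 lies in the same shared X and Y region as CRLF2, and its 2 to 8 counts are not informative.

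**Figure D4:**
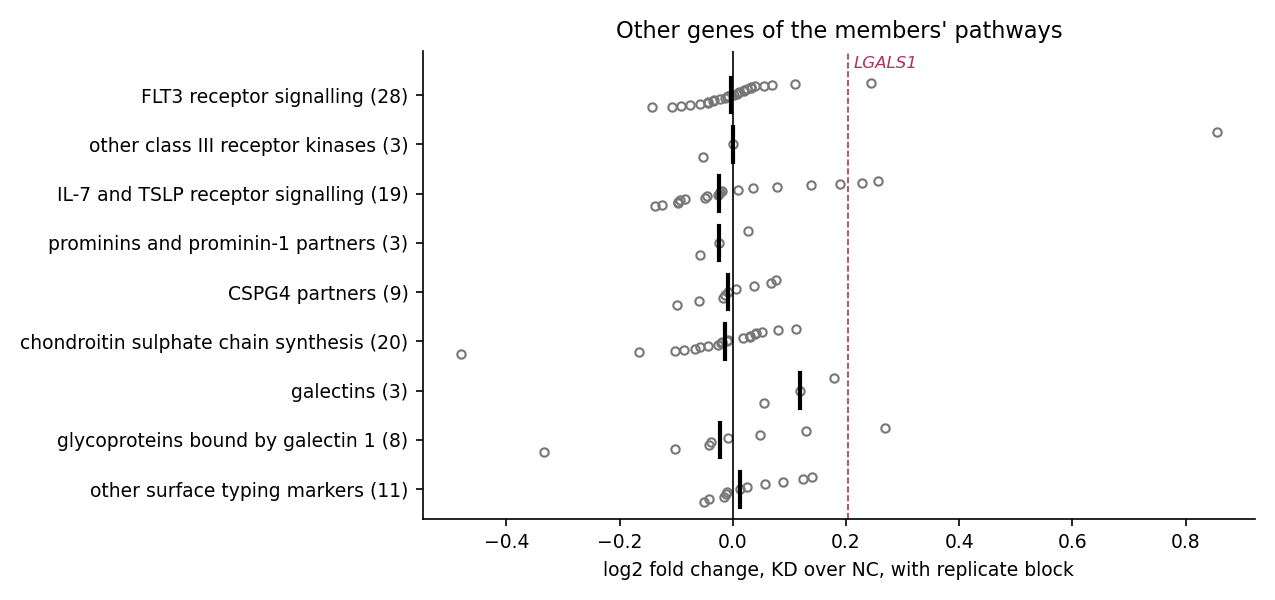
Paired log2 fold change (KD over NC, replicate block) of the tested genes of each list other than the 5 genes themselves, with the number in brackets; circles are genes, black bars list medians and the dashed line is LGALS1 at 0.20. Medians lie between -0.02 and 0.01 except for the galectin list at 0.12. That median rests on 3 genes: LGALS8 (19 to 84 counts), LGALS9 and the galectin-binding LGALS3BP. No gene shown passed the test.

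All 5 genes differed between the replicate numbers. This comparison was chosen after the values were seen. The means of the libraries numbered 1, 2 and 3 ranged over 0.59 for CSPG4, 0.39 for IL7R, 0.35 for PROM1, 0.23 for LGALS1 and 0.22 for FLT3 on the log2 scale. The median over all tested genes was 0.42, and 0.29 for the 4440 genes with a mean CPM of at least 0.5 times that of IL7R. An F test of the replicate number in the paired edgeR fit called all 5 (adjusted p 0.01 for FLT3, 6.56e-05 for PROM1, 2.07e-06 for CSPG4, 0.00866 for LGALS1 and 0.000269 for IL7R). Of all tested genes 51.1% were called, and 68.3% of the 4440. The pattern differed between genes: replicate 1 minus the mean of the other numbers was 0.30 for IL7R, -0.33 for PROM1 and -0.16 for FLT3, and replicate 3 minus replicate 2 was -0.59 for CSPG4. The labels do not say what the numbers mark, and what differed between them cannot be told apart from the number.

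**Figure D5:**
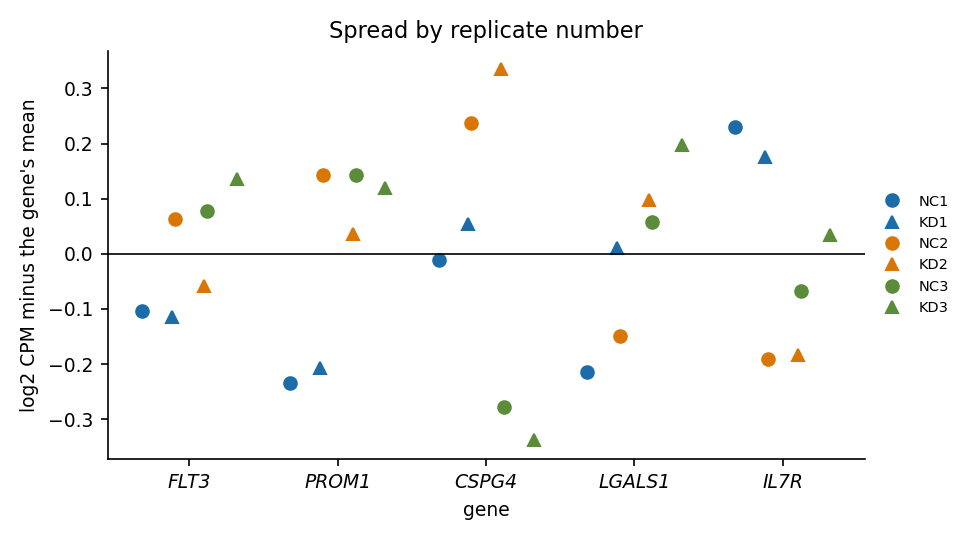
Log2 CPM of each library minus the gene's mean over 6 libraries; colours mark the replicate number, circles NC and triangles KD. Symbols of one colour lie together for most genes: CSPG4 is lowest in both replicate 3 libraries, IL7R highest and PROM1 lowest in both replicate 1 libraries.

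The ratio of FLT3 to PROM1 lay between 1.86 and 2.17, running 2.12, 1.86, 2.01 over the KD libraries numbered 1 to 3, against 2.17, 1.88, 1.89 over the NC libraries. The ratio of FLT3 to LGALS1 was 6.233, 6.098 and 6.501 in KD and 7.323, 7.868 and 6.888 in NC, so that all KD values lay below all NC values. This ratio was singled out after its values were seen, was not tested, and has no share over other gene pairs to set beside it. The CPM of LGALS1 alone overlapped between the groups. Over the 6 libraries the log2 levels of FLT3 and PROM1 correlated at r = 0.89, and at 0.75 once the mean of each replicate number was subtracted. IL7R and PROM1 correlated at -0.83, and at -0.36 after subtraction. CSPG4 and FLT3 correlated at -0.54, and at -0.89 after subtraction, the farthest from 0 of the 10 pairs of members after that step. These are descriptions over 6 libraries that share their replicate-number differences, and after subtraction they rest on 3 within-pair differences. The genes with the highest correlation across the 6 libraries, among 11905 protein-coding genes, were DVL1, SPRYD4 and PIK3CD for FLT3 (r = 0.99 each) and LDB1, JAK1 and ZNF594 for PROM1 (0.998, 0.997 and 0.996). For CSPG4 they were ZNF25, RFTN1 and UNC5B (0.99 each), for IL7R OXTR, CERK and FSIP2 (0.998, 0.998 and 0.997), and for LGALS1 CD248, PCGF1 and SPAG7 (0.99, 0.99 and 0.98). CD248, the surface glycoprotein endosialin, had 44.8 CPM and a paired log2 fold change of 0.27. With replicate-number means subtracted other genes led: ACAP3, CCDC110 and NXF1 for FLT3, C2orf49, TMEM169 and SOCS7 for PROM1, and RTCA, ZMAT5 and PRKAG2 for CSPG4. For LGALS1 they became PPP2R3C, RNF111 and METTL1, and for IL7R NDUFAF1, MIER1 and AP3S1. Over the 6 libraries 717 candidates exceeded r = 0.95 with PROM1, 242 with IL7R, 65 with FLT3, 33 with CSPG4 and 27 with LGALS1. After subtraction 226 to 361 did so with each gene, so the names found after subtraction are not distinctive. Whether those found over the 6 libraries are distinctive was not tested.

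Of the nearest protein-coding neighbours, those of CSPG4 (SNX33, ODF3L1), LGALS1 (PDXP, NOL12) and IL7R (SPEF2, CAPSL) had at most 9.53% of the counts of the gene beside them. FGFBP1 beside PROM1 had 0 to 11 counts and URAD beside FLT3 19 to 71. The exceptions were TAPT1, at 32.7% to 37.3% of the PROM1 counts, and PAN3, whose start lies 37.9 kb from FLT3. PAN3, a subunit of the PAN2-PAN3 deadenylase, had 230.2% to 288% of the FLT3 counts, at 2920 ± 364 CPM (SD, n = 3) in KD against 3034 ± 384 in NC, with a paired log2 fold change of -0.05 (-0.14 to 0.03). No neighbour tested was called in either fit, where 0% and 0.171% of all tested genes were called without and with the block. The antisense genes over CSPG4 had at most 1.22% of its counts each.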

How the data were processed

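Per the labels, 3 KD and 3 NC libraries of total RNA from SEM cells were made with a kit that depletes globin transcripts, and groups and replicate numbers come from the titles. The labels call the replicates independent without saying what separates them, so p-values measure the spread between these libraries. The deposited htseq-count files hold raw read counts per Ensembl gene. Tools named in the processing notes of the submitters are STAR 2.7.10a, FastQC 0.11.8, DESeq2 and HTSeq 0.11.1, with hg38 as the build. Neither annotation release nor strand setting is given in those sources, so reads over overlapping genes on opposite strands may count as ambiguous. Ambiguous records, 2.58% to 5.94% per library, count for no gene, so low counts of an overlapping gene do not exclude lost reads. The 5 summary lines were left out; genes held 33.5% to 60.2% of records. A repeated symbol was taken from the ID with the highest mean count. Coordinates and lengths are from GENCODE 29 (GRCh38), which held 58264 of 62703 IDs, and 62686 were in the gene name table.

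All genes were fitted together with edgeR 4.0.16 in R 4.3.3 (filterByExpr, TMM, robust quasi-likelihood F test, Benjamini-Hochberg adjusted p under 0.05), with group as the only term. Log2 CPM use a prior count of 2. DESeq2 1.42.0, limma-voom (limma 3.58.1), other size factors, no filter, left-out libraries and the replicate number as a block were alternatives, and the script was tested on simulated data. For numbers 1, 2 and 3 the deviation of the KD library from its group mean correlated with that of its NC namesake at 0.889, 0.619 and 0.605, each over 0.1, the value required here to regard numbers as pairs. The pairing rests on this check and not on the labels. KD replicate 2 correlated with NC replicate 3 at 0.590, and KD replicate 3 with NC replicate 2 at 0.553, also over 0.1. The check therefore sets number 1 apart but cannot show that numbers 2 and 3 are matched as labelled, and the paired intervals take that match as given. Some list genes are not reported here. Members and lists were chosen with earlier results of these data known. Genes named are the 5 members, their direct partners, genes called in either fit, the 2 smallest paired p per list, genome neighbours and the 3 most correlated genes per member. Further list members named in the text (GRB2, PTPN11, SHC1, PTPRJ, DUSP6, CISH, MME, CD99, PDGFRB, ANPEP, CD248 for its fold change, and the markers) were chosen after their values were seen. The lowest count of the 5 genes was 1841, so counting error was at most 2.33% of a value.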

Additional observations from a re-analysis of the deposited data

How the results depend on the processing

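No alternative brought any of the 5 genes past the threshold. With RLE size factors, no filter on low counts, DESeq2, limma-voom or the replicate block, each gene kept its direction. LGALS1 stayed higher in KD in every alternative run, from 0.12 to 0.32 on the log2 scale when a library or pair was left out, and its smallest adjusted p was 0.0712, with the replicate block and without replicate 3. The estimates of the other genes lie near 0 and changed sign as libraries or pairs were left out. Without the block they ran from -0.13 to 0.0385 for FLT3, -0.15 to 0.0560 for PROM1, -0.17 to 0.21 for CSPG4, -0.0641 to 0.14 for IL7R. With the replicate block and 1 pair left out they ran from -0.06 to 0.00907 for FLT3, -0.06 to -0.0146 for PROM1, -0.0118 to 0.09 for CSPG4, -0.0195 to 0.06 for IL7R, where PROM1 kept its sign. The number of genes called was 0 without the replicate block in every alternative, 29 with it, and with the replicate block 5 without replicate 1, 119 without replicate 2 and 73 without replicate 3. These latter fits tested 16344 to 29982 genes rather than 16929. The replicate block lowered the biological coefficient of variation from 0.372 to 0.0683.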

Other observations

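FLT3 and PAN3 stood out from the genes around them on chromosome 13. Of 17 protein-coding genes, FLT3 and those within 1 Mb of it, PAN3 ranked 72 and FLT3 108 of 12235 by CPM per kb, and the one other gene as high was RPL21, a ribosomal protein gene, at rank 84. Between FLT3 and the homeobox gene CDX2 lies URAD, at 2.45 CPM per kb, and FLT1, the VEGF receptor on the far side of PAN3, had 0.463 CPM per kb. POMP, GTF3A and MTIF3, housekeeping genes further out, had 89.9, 91.2 and 38.3 CPM per kb. PAN3 had 2533 to 3437 CPM in the 6 libraries and FLT3 1087 to 1292. The region was looked at after the value of PAN3 was seen, the gene count does not show which exons or introns of PAN3 the reads cover, and neither gene was called between KD and NC.

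PDGFRB, a class III receptor tyrosine kinase better known from mesenchymal cells, was well expressed, at 83.1 ± 16.2 CPM (SD, n = 3) in KD against 83.2 ± 17.3 in NC, with a paired log2 fold change of 0.00 (-0.11 to 0.11). CSF1R had 17.7 ± 5.72 and 18.4 ± 6.92 CPM. PDGFRB had 1074 to 2544 counts. Of the 5 fibroblast markers, COL1A1 had 73 to 190 counts and a paired log2 fold change of 0.32 (-0.02 to 0.66), and was not called. COL1A2, COL3A1, DCN and LUM had 0 to 93 counts and did not pass the filter. ANPEP, the myeloid antigen CD13, had 151 ± 18.7 CPM (SD, n = 3) in KD against 149 ± 14.1 in NC.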
